A study of Mus musculus with 15 samples.

Results

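Keratins and other intermediate filament genes were followed in the kidneys of mice given carbon tetrachloride (CCl4), ethanol (EtOH) or both. The set held 7 keratins (Krt7, Krt8, Krt18, Krt19, Krt20, Krt23 and Krt80), the type III filament genes vimentin (Vim) and desmin (Des), and the type IV gene nestin (Nes). Members were taken by symbol from a table of read counts, without regard to their values. All 10 of the 10 listed symbols were present among 23866 genes, and 10 of 10 passed the filter on low counts that left 16105 genes to test.

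Intermediate filaments are rope-like polymers of the cytoplasm. Keratins polymerise only as pairs of an acidic type I and a basic type II chain, whereas vimentin and desmin can form filaments on their own and nestin joins a type III partner. Keratin 8 and keratin 18 are the founding pair of simple epithelia, and in the kidney they are richest in collecting duct and parietal epithelium and sparse in healthy proximal tubule. Vimentin marks mesenchymal and endothelial cells and also podocytes, desmin marks muscle cells and mesangium, and nestin in adult kidney is known from podocytes and vessels. Several simple keratins and vimentin are known to be re-expressed by tubule cells after damage.

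RNA came from frozen kidneys of male C57BL/6 mice, and each library carries a sample number of its own. The olive oil group (n = 3) had received the vehicle by intraperitoneal injection for 6 weeks. The CCl4 group (n = 4) had received the liver toxin for 6 weeks, and replicates 3 and 4 of it continued at a lower dose for 4 more weeks. The EtOH group (n = 4) had olive oil for 6 weeks followed by 4 weeks of ethanol. The CCl4+EtOH group (n = 3) had CCl4 for 6 weeks followed by 4 weeks of ethanol. Sample titles of this last group name CCl4 again beside ethanol, while the source field names no CCl4 in those weeks, so continued dosing cannot be told apart. Olive oil mice were sampled 4 weeks earlier than EtOH and CCl4+EtOH mice, and this time cannot be told apart from ethanol in comparisons with olive oil.

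Libraries held 16.4 to 23.5 M counts. Levels are given as CPM, counts relative to library size after scaling by trimmed mean of M-values (TMM). EtOH replicates 1, 2 and 3 stood apart by adrenal transcripts, with 8 adrenal cortex markers summing to 788 to 1265 CPM against 9.12 to 30.8 CPM in all other libraries, and the tests that use the EtOH group are therefore also given without them. CCl4+EtOH replicate 3 stood apart from its group in tubule injury markers: the 6 markers listed (Havcr1, Lcn2, Vcam1, Sox9, Cldn1 and Spp1) summed to 4687 CPM there, to 37154 and 27050 CPM in replicates 1 and 2, and to 713 to 1359 CPM in the 11 libraries of the other groups. Of these 6 markers, 6 rose in CCl4+EtOH over olive oil in the test described below, where 18.9% of all genes were higher. As these are whole kidneys, fewer cells of a type and less RNA per cell cannot be told apart.

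Promoter sequences are shown for the keratin 8 and keratin 18 pair and for Krt20, Vim and Nes, because these members carry the differences described below. Each runs from 250 bases before to 50 bases after the gene start in RefSeq (GRCm38.p6), which is another build than the authors used, so the counts were not placed on it. Of the 10 members, 8 matched a RefSeq promoter, and Krt19 and Krt80 did not. Capitals mark matches on either strand to any of 5 motifs. The AP-1 motif was spelled TGANTCA, and the GC box of the SP1 family was spelled GGGCGG. The TATA box was spelled TATAAA, the E-box motif was spelled CACGTG, and the motif of the TEAD family was spelled CATTCC.
Krt20: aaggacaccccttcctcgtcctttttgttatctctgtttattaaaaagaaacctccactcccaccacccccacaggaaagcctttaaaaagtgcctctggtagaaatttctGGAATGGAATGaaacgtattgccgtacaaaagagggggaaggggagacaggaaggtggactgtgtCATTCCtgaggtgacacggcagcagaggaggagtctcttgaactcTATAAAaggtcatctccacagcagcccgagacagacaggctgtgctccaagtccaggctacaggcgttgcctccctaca
Krt8: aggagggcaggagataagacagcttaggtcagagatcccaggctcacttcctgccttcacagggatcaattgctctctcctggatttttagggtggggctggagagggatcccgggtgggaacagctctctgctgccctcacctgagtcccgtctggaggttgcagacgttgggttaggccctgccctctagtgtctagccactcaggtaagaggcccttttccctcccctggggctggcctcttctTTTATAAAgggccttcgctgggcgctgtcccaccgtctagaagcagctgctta
Krt18: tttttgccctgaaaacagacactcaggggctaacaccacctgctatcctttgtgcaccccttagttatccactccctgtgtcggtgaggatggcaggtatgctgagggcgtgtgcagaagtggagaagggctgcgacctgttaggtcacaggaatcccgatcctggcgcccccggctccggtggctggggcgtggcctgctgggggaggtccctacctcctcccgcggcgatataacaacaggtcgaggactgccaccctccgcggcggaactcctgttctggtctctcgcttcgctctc
Vim: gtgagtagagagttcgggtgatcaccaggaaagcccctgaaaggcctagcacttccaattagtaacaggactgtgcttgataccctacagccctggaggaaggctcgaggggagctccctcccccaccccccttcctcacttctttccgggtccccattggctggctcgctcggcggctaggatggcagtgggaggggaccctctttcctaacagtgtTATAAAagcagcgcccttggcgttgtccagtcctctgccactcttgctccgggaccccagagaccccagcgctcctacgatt
Nes: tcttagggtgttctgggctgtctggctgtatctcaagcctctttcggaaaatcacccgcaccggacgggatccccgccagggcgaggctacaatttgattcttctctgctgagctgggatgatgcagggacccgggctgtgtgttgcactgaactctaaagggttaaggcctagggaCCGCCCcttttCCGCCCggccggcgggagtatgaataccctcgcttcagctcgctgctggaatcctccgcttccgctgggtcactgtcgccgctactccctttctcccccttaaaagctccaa
The Krt20 window lies at chr11:99438104-99438403 on the minus strand, and the Krt8 window at chr15:102004293-102004592 on the minus strand. The Krt18 window, on the same chromosome, is chr15:102027966-102028265 on the plus strand. The Vim and Nes windows are chr2:13574061-13574360 and chr3:87970843-87971142, both on the plus strand. Krt20 had a TATA box at position -29 from its start and CATTCC matches at -139, -134 and -74, the first pair of which share a base. At least 3 CATTCC matches were found in 0.131% of 32851 RefSeq promoters of the same length, and at least 1 in 14.7%. Vim had its TATA box at -32, while the TATAAA matches of Krt8 lay at -3 and -1 and overlapped each other. Nes had GC boxes at -73 and -62. Among the 8 promoters matched, TATAAA was found in 3 (Krt8, Krt20 and Vim) against 13.6% of all promoters, GGGCGG in 3 (Krt7, Des and Nes) against 35.7%, CACGTG in 1 (Krt23) against 7.15%, CATTCC in 1 (Krt20) and TGANTCA in 0 against 7.81%. The Krt18 window held no match to these letters. Such matches describe the sequence and do not show binding.

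In CCl4+EtOH kidneys, 6 of the 10 genes rose over olive oil and 0 fell: Krt20, Krt19, Krt18, Krt8, Nes and Vim. Krt23, Krt80, Krt7 and Des did not pass the test, and 0 members fell in DESeq2 or limma-voom either. At an unadjusted p under 0.05 the same 6 members rose and 0 fell, and 45.6% of all genes passed in either direction. A gene was called at an adjusted p under 0.05 in edgeR's quasi-likelihood test, fitted on all 16105 genes in all 14 libraries with Benjamini-Hochberg adjustment. By that rule 18.9% of all genes tested were higher and 16.6% lower. The median log2 fold change of the 10 members was 1.03, against 0.02 over all genes tested. Libraries of the groups did not overlap, with CCl4+EtOH higher, for 5 of the 10 members and for 22.9% of all genes.

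**Figure D1:**
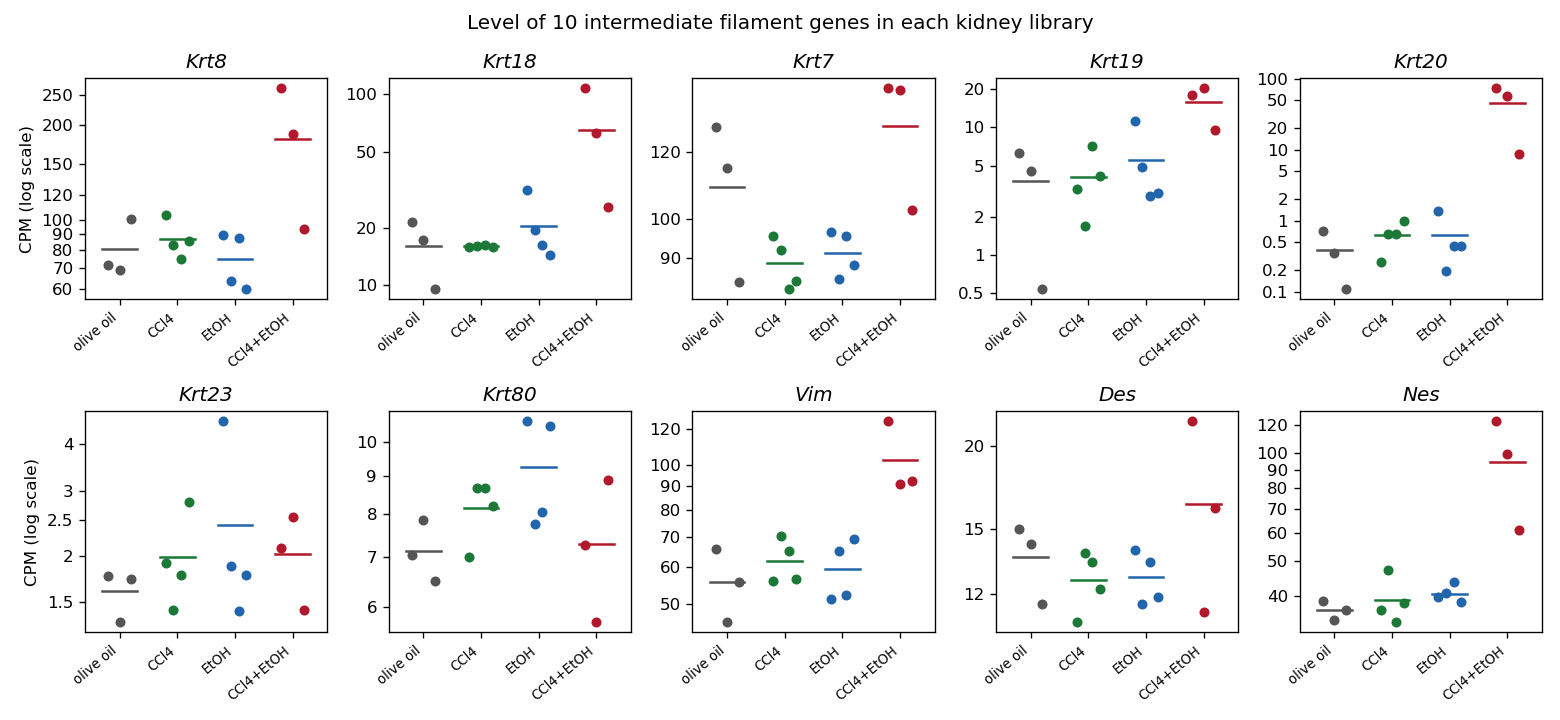
Level of each gene in CPM on a log axis, 1 point per library in replicate order and a line at each group mean, with each panel on its own range. Krt20 lay between 8.76 and 73.2 CPM in CCl4+EtOH and between 0.108 and 1.39 CPM in the 11 other libraries, while the groups overlapped for Krt23 and Krt80.

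Krt8 encodes the type II chain of the simple epithelial pair and was the most abundant member per kilobase in each group. It measured 72.0, 69.1 and 100.5 CPM in the olive oil libraries and 261.5, 187 and 93.6 CPM in CCl4+EtOH. The third CCl4+EtOH library lay below the third olive oil library, so the groups overlapped. The log2 fold change was 1.17 ± 0.30 (standard error, SE), 2.24-fold, with an edgeR adjusted p of 0.00874. In a fit of these groups alone, with 3 libraries each, the call was lost (edgeR adjusted p = 0.0597). CCl4 libraries held 104, 83.0, 75.2 and 85.7 CPM and EtOH libraries 89.4, 63.7, 87.3 and 60.2 CPM, within or close to the olive oil range.

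Krt18 encodes the type I partner of keratin 8. Its level was 21.5, 17.2 and 9.54 CPM in olive oil and 107, 62.6 and 25.7 CPM in CCl4+EtOH, with no overlap. The change was 2.02 ± 0.44 on the log2 scale, 4.05-fold, with an edgeR adjusted p of 0.00414. The CCl4 libraries lay close together, between 15.9 and 16.2 CPM. The EtOH libraries held 31.5, 19.4, 16.2 and 14.4 CPM, and the highest of them exceeded the lowest CCl4+EtOH library.

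Krt7 encodes a type II keratin of ducts and transitional epithelium. It measured 128, 115 and 84.4 CPM in olive oil and 142, 142 and 102 CPM in CCl4+EtOH, and these ranges overlapped. The difference was 0.24 ± 0.15 on the log2 scale with an edgeR adjusted p of 0.218, and it passed only without CCl4+EtOH replicate 3 (0.38, adjusted p = 0.0308). CCl4 libraries held 82.9 to 95.7 CPM and EtOH libraries 85.1 to 96.6 CPM, so every one of these 8 lay below every CCl4+EtOH library.

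Krt19 encodes the smallest type I keratin, found in ducts and urothelium. It measured 6.34, 4.55 and 0.542 CPM in olive oil and 17.9, 20.2 and 9.63 CPM in CCl4+EtOH. No olive oil library reached the lowest CCl4+EtOH library, but olive oil replicate 3, with 10 counts, lay far below the other two. The log2 fold change was 2.06 ± 0.70 with an edgeR adjusted p of 0.0370. This call was lost in 7 of 24 alternatives, at an adjusted p of up to 0.106, among them leaving out CCl4+EtOH replicate 1 or 2 or olive oil replicate 2 or 3. CCl4 libraries held 3.32, 1.68, 7.15 and 4.13 CPM and EtOH libraries 11.3, 4.90, 2.89 and 3.04 CPM, of which EtOH replicate 1 was above the lowest CCl4+EtOH library.

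Krt20 encodes a type I keratin known from intestinal epithelium, the umbrella cells of the urothelium and gastric mucosa. It was nearly unread in olive oil, at 12, 8 and 2 counts or 0.704, 0.353 and 0.108 CPM. In CCl4+EtOH it had 1842, 1398 and 203 counts, or 73.2, 56.4 and 8.76 CPM. Even the lowest CCl4+EtOH library lay 22.6-fold over the olive oil mean, while replicates 1 and 2 lay 188-fold and 145-fold over it. The fitted change was 6.90 ± 0.87 on the log2 scale, 119-fold, with an edgeR adjusted p of 0.000236, and its size depends on the few olive oil counts. CCl4 libraries held 0.259, 0.642, 0.650 and 0.973 CPM and EtOH libraries 1.39, 0.198, 0.442 and 0.444 CPM. Of the members it had the largest fitted change over olive oil, and over leaving out single libraries and the other alternatives that change ranged from 6.41 to 7.54 and stayed called.

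Krt23, a type I keratin of uncertain role in kidney, and Krt80, a type II keratin of keratinising and some simple epithelia, were low and did not pass the test. Krt23 held 1.76, 1.33 and 1.73 CPM in olive oil and 2.11, 2.54 and 1.42 CPM in CCl4+EtOH (0.34 ± 0.41 on the log2 scale, edgeR adjusted p = 0.548). Its highest value, 4.61 CPM, belonged to EtOH replicate 1. Krt80 held 7.04, 7.86 and 6.50 CPM in olive oil and 7.27, 5.73 and 8.89 CPM in CCl4+EtOH, a difference of 0.03 ± 0.18 on the log2 scale (edgeR adjusted p = 0.910). For both genes the ranges of the groups overlapped.

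Vim measured 65.6, 45.6 and 55.7 CPM in olive oil and 125, 91.2 and 92.7 CPM in CCl4+EtOH. All CCl4+EtOH libraries lay above all 11 others, whose highest value was 70.2 CPM in CCl4 replicate 2. The log2 fold change over olive oil was 0.89 ± 0.16, 1.85-fold, with an edgeR adjusted p of 0.00135. Unlike Krt8, Krt18, Krt19 and Krt20, vimentin in CCl4+EtOH replicate 3 was no lower than in replicate 2. CCl4 libraries held 56.0 to 70.2 CPM and EtOH libraries 51.2 to 69.3 CPM.

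Des, the muscle type III filament, held 15.0, 14.3 and 11.6 CPM in olive oil and 21.8, 11.3 and 16.1 CPM in CCl4+EtOH. These overlapped, and the difference of 0.27 ± 0.19 on the log2 scale did not pass (edgeR adjusted p = 0.294). Without CCl4+EtOH replicate 2, which was the lowest of its group, it passed at 0.49 with an adjusted p of 0.0420.

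Nes measured 38.8, 34.3 and 36.6 CPM in olive oil and 123, 99.9 and 61.1 CPM in CCl4+EtOH. All CCl4+EtOH libraries lay above the 11 others, which spanned 33.9 to 47.3 CPM. The log2 fold change over olive oil was 1.37 ± 0.19, 2.59-fold, with an edgeR adjusted p of 0.000348. Nestin varied little among olive oil mice, with a coefficient of variation of 6.17%, against 77.0% for Krt20. Krt20 had only 2 to 12 counts there, against 662 to 777 for nestin, and so few counts widen the spread by themselves. In CCl4+EtOH the coefficient for nestin was 32.9%.

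**Figure D2:**
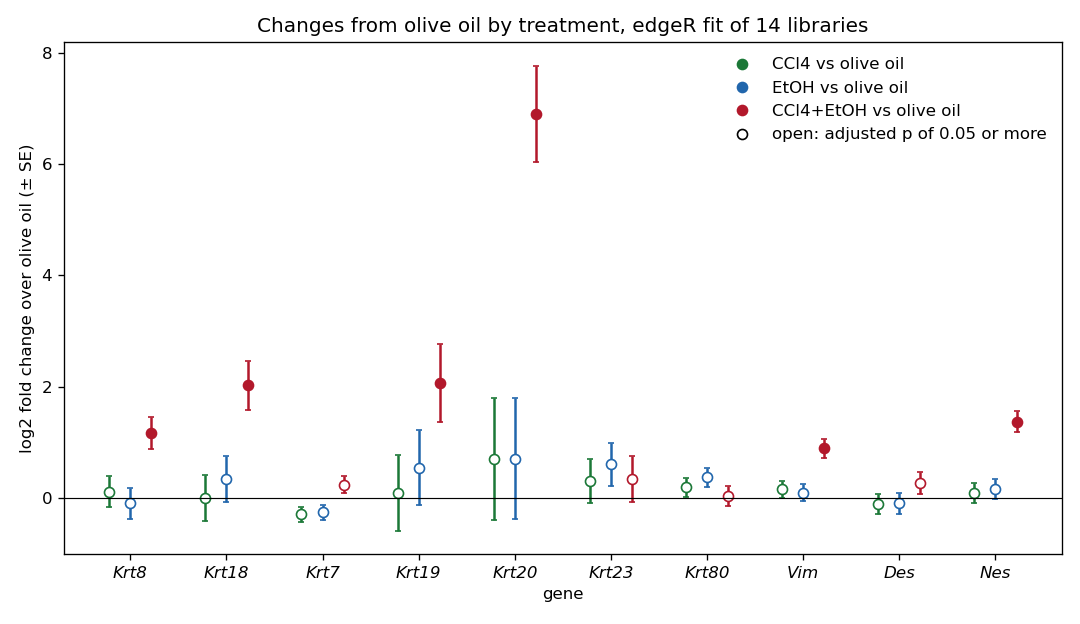
Log2 fold change over olive oil with its SE for each gene and treatment, from the edgeR fit of 14 libraries, with open circles where the adjusted p was 0.05 or more. Filled circles appear only for CCl4+EtOH, at Krt8, Krt18, Krt19, Krt20, Vim and Nes, and the 3 comparisons share the olive oil libraries.

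Single exposures gave no call among the members. For CCl4 against olive oil, 0 of 10 passed the edgeR test, where 0% of all genes did, and 1 member had an unadjusted p under 0.05, against 3.97% of all genes. That member was Krt7, at -0.30 ± 0.14 on the log2 scale. DESeq2 and limma-voom also called 0 members. For EtOH against olive oil, 0 of 10 passed in edgeR, DESeq2 and limma-voom, where edgeR called 0.168% of all genes. The smallest adjusted p belonged to Krt80 (0.37 ± 0.17, edgeR adjusted p = 0.471), which was the 1 member with an unadjusted p under 0.05, against 10.4% of all genes. Without EtOH replicates 1, 2 and 3, 0 of 10 members passed, with 1 EtOH library left. Between CCl4 mice of the longer and the shorter schedule, with 2 libraries each, 0 of 10 members and 0% of all genes passed the edgeR test, and 0 members had an unadjusted p under 0.05, against 6.67% of all genes.

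Against EtOH, which matches CCl4+EtOH in duration, 6 of 10 members rose and 0 fell, where 18.1% of all genes tested were higher and 16.2% lower. These were Krt20 (log2 fold change 6.19 ± 0.72), Krt18 (1.68 ± 0.40), Krt8 (1.27 ± 0.27), Nes (1.22 ± 0.18), Vim (0.79 ± 0.15) and Krt7 (0.49 ± 0.14). The edgeR adjusted p of the 6 ran from 0.000192 for Krt20 to 0.0127 for Krt7. Krt19 missed the threshold at 1.52 ± 0.62 (edgeR adjusted p = 0.0768), and passed without EtOH replicate 1 (2.13, adjusted p = 0.0243) or without olive oil replicate 3 (1.52, adjusted p = 0.0337). Krt80 was called lower without CCl4+EtOH replicate 3 (-0.51, edgeR adjusted p = 0.0296) and in limma-voom (-0.46, adjusted p = 0.0412), which also called Krt19 higher (2.12, adjusted p = 0.0104). Krt7 lost its call without CCl4+EtOH replicate 1 or 2 (0.42 each, edgeR adjusted p = 0.0649 and 0.0668). Without EtOH replicates 1, 2 and 3, which leaves EtOH replicate 4 alone and assumes that it varies like the other groups, the changes were 6.66 for Krt20, 2.16 for Krt18, 1.57 for Krt8, 1.28 for Nes, 0.55 for Vim and 0.53 for Krt7. In that fit only Krt20 passed (edgeR adjusted p = 0.0490), and Nes, the next, had an adjusted p of 0.0633.

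Against CCl4, 7 of 10 members rose and 0 fell, where 18.7% of all genes were higher and 16.2% lower. Krt20 (6.20 ± 0.72), Krt18 (2.03 ± 0.40), Krt19 (1.98 ± 0.64), Nes (1.28 ± 0.18), Krt8 (1.06 ± 0.27), Vim (0.73 ± 0.15) and Krt7 (0.54 ± 0.14) passed, with edgeR adjusted p from 0.000143 to 0.0295. Without CCl4+EtOH replicate 1, Krt8 lost its call (0.70, edgeR adjusted p = 0.0681). Krt19 lost it without any of 5 libraries (CCl4 replicates 1, 2 and 4, CCl4+EtOH replicates 1 and 2), at 1.71 to 1.99 and an edgeR adjusted p of up to 0.101. Against the 2 CCl4 libraries of the longer schedule alone, 6 of 10 rose and 0 fell, where 11.8% of all genes were higher and 11.0% lower: Krt20 (5.82 ± 0.98), Krt18 (2.02 ± 0.54), Nes (1.39 ± 0.22), Krt8 (1.17 ± 0.35), Vim (0.76 ± 0.19) and Krt7 (0.62 ± 0.17). Leaving out CCl4+EtOH replicate 1 reduced the 6 to 3 (Krt20, Nes and Vim), where 1076 of all genes were higher, against 1942 in the full set. Without CCl4+EtOH replicate 2, Krt8 (1.15, edgeR adjusted p = 0.0723) and Krt7 (0.55, adjusted p = 0.0608) lost their calls. In that fit 1129 of all genes were higher. Leaving out CCl4 replicate 3 or 4 leaves 1 library in that group, whose own spread cannot be measured. The changes were then 2.03 and 2.01 for Krt18, 1.07 and 1.26 for Krt8, 0.86 and 0.66 for Vim, and 0.60 and 0.63 for Krt7. All these comparisons share the CCl4+EtOH libraries.

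The interaction asks whether CCl4+EtOH differed from EtOH by more than CCl4 differed from olive oil. It passed for Krt20 (5.50 ± 1.51 on the log2 scale, edgeR adjusted p = 0.0427), Nes (1.12 ± 0.25, adjusted p = 0.0210) and Krt7 (0.79 ± 0.19, adjusted p = 0.0249), 3 of 10, where 5.49% of all genes passed in this direction. Krt8, Krt18 and Vim had interactions of 1.16 ± 0.38, 1.68 ± 0.57 and 0.63 ± 0.21 and edgeR adjusted p of 0.0738, 0.0788 and 0.0747. For Krt7 the term combines a level in CCl4 below olive oil with one in CCl4+EtOH above EtOH. Olive oil mice and CCl4 replicates 1 and 2 lacked the 4 further weeks, so time cannot be told apart from ethanol in the interaction. The count of 3 rested on single libraries. It was 0 without CCl4+EtOH replicate 1, without CCl4+EtOH replicate 2 or without olive oil replicate 1, and 1 (Nes) without olive oil replicate 2. Of all genes, 215, 197, 197 and 371 were higher in these fits, in that order, against 884 in the full set. Without CCl4+EtOH replicate 3, 6 members passed as higher, and Krt80 passed as lower (-0.70, edgeR adjusted p = 0.0374). In that fit 2377 of all genes were higher and 2504 lower. The count was also 0 without EtOH replicates 1, 2 and 3. The call of Krt20 was lost in 14 of 23 alternatives, among them leaving out any 1 of the 4 CCl4 libraries, at values of 4.85 to 5.97 and an edgeR adjusted p of up to 0.217.

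Levels of different genes were compared as CPM per kilobase of transcript. In olive oil the order ran from Krt8 (41.1 ± 8.85, SD, n = 3) through Krt7 (26.7 ± 5.50), Vim (25.4 ± 4.56), Krt18 (11.2 ± 4.23), Nes (5.97 ± 0.37), Des (4.50 ± 0.59), Krt19 (2.42 ± 1.88), Krt80 (2.33 ± 0.22) and Krt23 (1.03 ± 0.16) to Krt20 (0.20 ± 0.16). Krt7 exceeded Vim in 2 of 3 libraries and Krt19 exceeded Krt80 in 2 of 3, so these neighbours did not differ beyond their spread. In CCl4+EtOH Krt8 still led at 92.3 ± 43.0 CPM per kilobase, followed by Vim (46.9 ± 8.62), Krt18 (45.4 ± 28.4), Krt7 (31.5 ± 5.59) and Krt20 (23.9 ± 17.3). Krt20 thus went from the lowest of the 10 to the 5th place, and it exceeded the next gene, Nes (15.4 ± 5.09), in 2 of 3 libraries. Vim exceeded Krt18 in only 1 of the 3, so that order did not hold beyond the spread. In the CCl4 and EtOH groups the order was Krt8, Vim, Krt7, Krt18, Nes and Des from the top, and Krt20 was last with 0.33 ± 0.15 and 0.32 ± 0.27 CPM per kilobase.

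The 7 keratins together summed to 90.9, 81.8 and 82.2 CPM per kilobase in olive oil and to 296, 219 and 105 in CCl4+EtOH. The third CCl4+EtOH library was thus about level with EtOH replicate 1, at 105, while the other libraries without the combined exposure held 69.1 to 93.1. Type I chains (Krt18, Krt19, Krt20 and Krt23) made up 22.5%, 19.4% and 9.91% of that sum in olive oil and 42.3%, 39.8% and 28.0% in CCl4+EtOH. The share was 15.6% to 21.9% in CCl4 and 16.8% to 31.0% in EtOH, so CCl4+EtOH replicate 3 lay below EtOH replicate 1. In EtOH replicate 4, the EtOH library without the adrenal transcripts, the share was 19.3% and the sum 69.1 CPM per kilobase. Krt20 alone supplied 12.8%, 13.4% and 4.32% of the keratin sum in CCl4+EtOH and at most 0.683% in any other library. Among the type I chains its share was 30.3%, 33.5% and 15.4% in CCl4+EtOH and at most 3.16% elsewhere. Krt8 held 43.5% to 45.4% of the keratin sum in CCl4+EtOH and 40.4% to 62.4% in olive oil, and Krt7 held 11.8% to 23.8% and 25.1% to 34.5%.

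**Figure D3:**
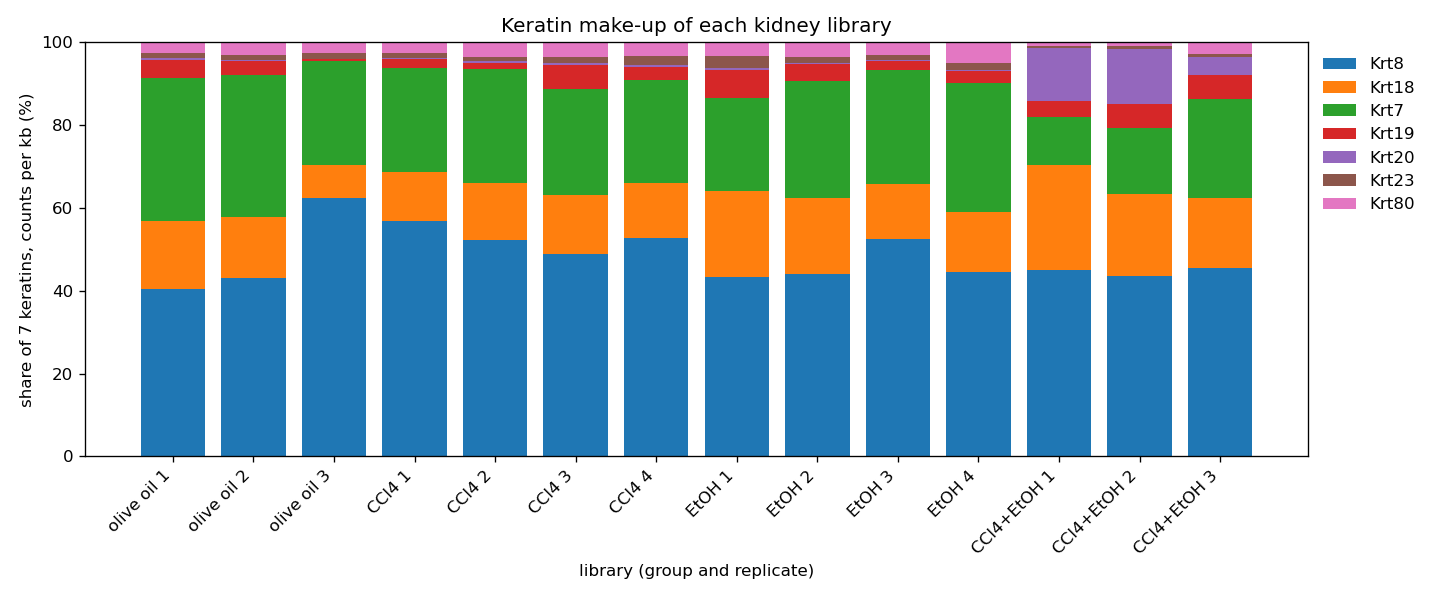
Share of each keratin in the summed CPM per kilobase of the 7 keratins, 1 bar per library. The Krt20 band is 4.32% to 13.4% in the CCl4+EtOH libraries and at most 0.683% in the others.

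Ratios to Krt8 within a library do not depend on library scaling, and show which members moved by unequal amounts. The log2 ratio of Krt20 to Krt8 was -2.33 ± 0.94 (SD, n = 3) in CCl4+EtOH and -7.37 ± 1.03 (SD, n = 11) in the other libraries, a difference of 5.04. Its exact permutation p (two-sided) was 0.00275, the smallest that 364 splits allow, and 0.0247 after adjustment over the 9 ratios. Relative to Krt8, Krt80 (-1.25), Krt23 (-1.02), Des (-0.76) and Krt7 (-0.63) were lower in CCl4+EtOH. Their adjusted exact permutation p were 0.0330, 0.0330, 0.0396 and 0.0396. All 9 ratios share Krt8, which itself rose over olive oil (1.17), so a gene that stays level has a lower ratio. These lower ratios thus do not show a fall from olive oil, as the edgeR changes over olive oil were 0.03 (Krt80), 0.34 (Krt23), 0.27 (Des) and 0.24 (Krt7). Against EtOH the edgeR changes were -0.34 (Krt80), -0.26 (Krt23), 0.37 (Des) and 0.49 (Krt7), and against CCl4 they were -0.16, 0.04, 0.38 and 0.54. In these main fits only Krt7 passed, as higher. Krt80 was called lower against EtOH in limma-voom and without CCl4+EtOH replicate 3, as given above. Krt18 (0.66), Krt19 (1.01), Vim (-0.27) and Nes (0.17) did not pass (adjusted exact permutation p = 0.0948, 0.244, 0.368 and 0.368). Leaving out 1 CCl4+EtOH library left 78 splits, with a smallest p of 0.0128, or 0.115 after adjustment where 1 ratio alone reaches it. The Krt20 difference was 4.80 without replicate 1 and 4.74 without replicate 2, at that smallest exact permutation p in both, and its adjusted p was 0.115. Krt7, Krt23, Krt80 and Des did not pass in either case, at adjusted exact permutation p of 0.115 to 0.247. Without replicate 3 all 5 ratios passed, each at an adjusted exact permutation p of 0.0231. Without EtOH replicates 1, 2 and 3, Krt20 (5.09) and Krt23 (-0.91) passed at 0.0273, while Krt80 (-1.21), Des (-0.75) and Krt7 (-0.64) did not (adjusted exact permutation p = 0.0545, 0.0764 and 0.0818).

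**Figure D4:**
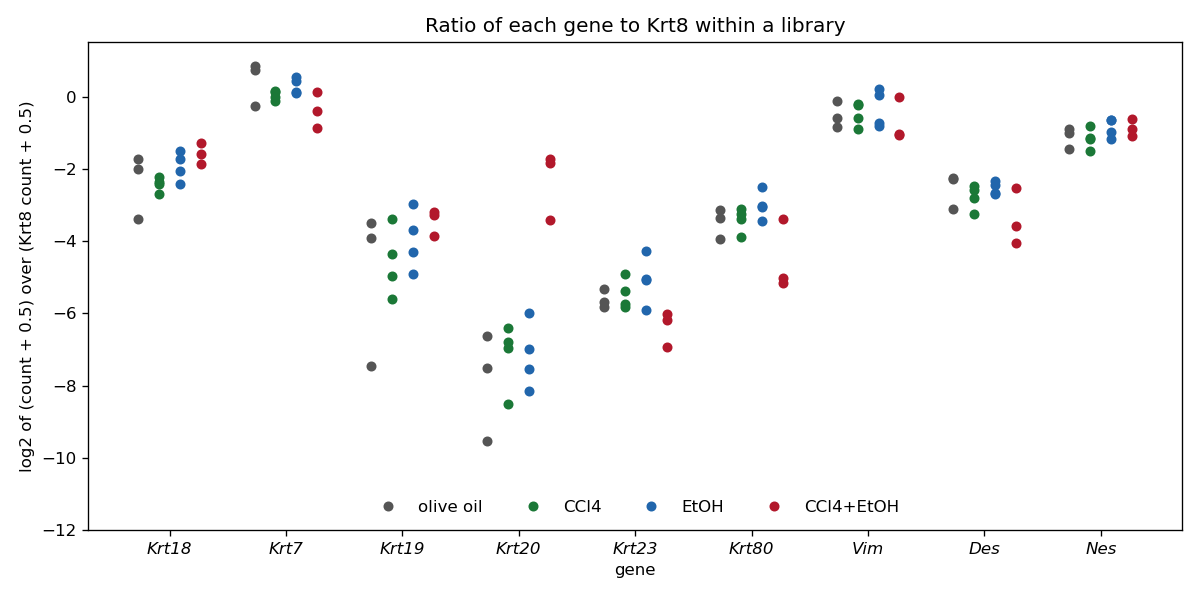
Log2 ratio of each gene's count to that of Krt8 in the same library, with 0.5 added to both, 1 point per library and groups side by side. The Krt20 points of CCl4+EtOH lie between -3.41 and -1.73, above those of the other libraries, which lie between -9.53 and -5.98.

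Genes whose log2 CPM followed a member most closely over the 14 libraries are given as a description, since the libraries share the split of CCl4+EtOH from the rest. For Krt20 these were Rcn1 (Pearson r = 0.984), Rtn4 (0.975) and Flna (0.972). For Krt8 they were Flot1 (0.963), Parp9 (0.956) and Pgm1 (0.955), and for Nes they were Itgav (0.984), Pea15a (0.983) and Rrm1 (0.980). Vim was followed by Crip1 (0.943), Rpl36a (0.935) and Anxa1 (0.934). Des, which was not called in the full set, had weaker neighbours in Phf20 (0.894), Pkia (0.824) and Mtap (0.822).

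Keratins outside the set were scarce. Of 24 other type I keratins listed, 24 were in the table and 4 passed the low-count filter (Krt10, Krt14, Krt15 and Krt222), and 5 had no count in any library. Krt10, a keratin of differentiating epidermis, fell by 0.55 ± 0.14 on the log2 scale in CCl4+EtOH against olive oil (edgeR adjusted p = 0.00939), and the other 3 did not pass. Of 23 other type II keratins, 21 were in the table and 1 passed the filter, Krt5 of basal epithelial cells, at 1.99 ± 0.78 (edgeR adjusted p = 0.0605). Of 9 other type III and IV genes, 8 were in the table and 4 were tested (Nefm, Prph, Sync and Synm). Of these 0 passed the edgeR test, and the smallest adjusted p was 0.0557, for Prph, peripherin of peripheral neurons. Counts were identical in every library for Krt31, Krt32, Krt33a, Krt33b, Krt34 and Krt35 (7 in all for each) and for Krt76 and Krt77 (36 in all for each), and how their reads were assigned is not given in the sources used here.

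Lamins form the intermediate filaments of the nucleus. In CCl4+EtOH over olive oil, where 18.9% of all genes were higher and 16.6% lower, all 3 lamins tested rose. They were Lmnb1 (1.22 ± 0.30, edgeR adjusted p = 0.00670), Lmna (0.49 ± 0.16, adjusted p = 0.0311) and Lmnb2 (0.29 ± 0.10, adjusted p = 0.0366). The lens filament gene Bfsp1, tested in the same list, did not pass (0.42 ± 0.66, edgeR adjusted p = 0.654). Of 14 tested genes for plakins and desmosomes, which anchor keratin filaments to junctions, 5 rose and 3 fell in this comparison. Those with the smallest p were the desmosomal cadherins Dsg2 (1.31 ± 0.16) and Dsc2 (0.99 ± 0.19), which rose, and envoplakin (Evpl, -0.91 ± 0.20) and plakophilin 4 (Pkp4, -0.56 ± 0.14), which fell, with edgeR adjusted p from 0.000150 to 0.00641. The median change over the 14 was 0.20 on the log2 scale. In the interaction Lmnb1 (1.35 ± 0.40), Dsg2 (0.97 ± 0.21) and plectin (Plec, 0.82 ± 0.22) of these lists passed (edgeR adjusted p = 0.0486, 0.0184 and 0.0364). Of all genes, 5.49% passed the interaction in this direction. In CCl4 and in EtOH against olive oil, 0 of the genes tested in these 5 lists passed the edgeR test.

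Markers of cells that can carry these filaments were read in the same comparison, in which 18.9% of all genes were higher and 16.6% lower. Beside Vim and Nes, 7 of 8 macrophage markers rose in CCl4+EtOH over olive oil and summed to 585 to 794 CPM against 222 to 329. Of 8 fibroblast markers 5 rose (844 to 1925 CPM against 341 to 825). Of 8 podocyte markers 2 rose (457 to 674 against 505 to 532) and of 9 smooth muscle and pericyte markers 2 rose (374 to 553 against 298 to 456), both close to the share of all genes. Of 8 endothelial markers 0 rose and 1 fell (420 to 538 against 497 to 522). The mesothelium list had 0 of 6 higher and 1 lower (77.3 to 134 CPM against 157 to 223). The lymphocyte list had 0 of 8 called in either direction (4.24 to 7.67 CPM against 5.69 to 7.60). Beside Krt19, Krt20 and Krt7, 0 of 8 urothelium markers passed, at sums of 17.4, 17.6 and 45.6 CPM in CCl4+EtOH and 5.80 to 17.7 CPM in olive oil. The median change of the 8 urothelium markers over olive oil was 1.41 on the log2 scale. In CCl4+EtOH, replicate 3 had the highest urothelium sum and the lowest Krt20. EtOH replicate 1 had the highest sum of all libraries, 61.3 CPM, and held 1.39 CPM of Krt20, the highest value outside CCl4+EtOH. Beside the keratins, 4 of 10 proximal tubule markers fell (8120 to 20660 CPM against 41442 to 48867) and 4 of 12 markers of the loop, distal tubule and collecting duct fell (5491 to 8359 against 8305 to 10014). Much of the proximal sum was Kap, a kidney androgen-regulated protein, with a mean of 27613 CPM in olive oil, 10890 in EtOH and 3370 in CCl4+EtOH. In EtOH the whole sum was 25024 to 30398 CPM, below every olive oil library, and 0 of the 10 proximal tubule markers passed there. Without Kap the other 9 markers summed to 15264 to 18416 CPM in olive oil, 15807 to 19795 in EtOH and 6151 to 17391 in CCl4+EtOH, where the groups overlapped. None of the 8 urothelium markers was at 0 in any library, and in the lists for macrophages, fibroblasts and podocytes no marker was at 0 either. Their part in the results for the filament genes was not tested.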

How the data were processed

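The starting point was the table of raw counts that the authors deposited, with genes as symbols and kidney libraries as columns. The aligner GSNAP and the genome build mm9 come from the submitters' processing notes. How reads were assigned to genes, and whether strand was used, is not given in the sources used. Reads of Krt8, Krt7, Krt80 and Des thus cannot be told apart from those of the genes that overlap them on the opposite strand in GENCODE M21. Of 23893 rows, 27 held a calendar date in place of a symbol (0.168% to 0.209% of each library's counts) and were left out. The table had 14 columns for 15 samples, and 1 sample of the olive oil group is not analysed here. No pair of libraries of a group agreed within sampling noise (chi-square per gene at least 9.79). The labels do not say that libraries come from separate animals beyond their numbers, so p-values measure only the spread between these samples, which may be technical.

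The main test was edgeR 4.0.16 (R 4.3.3) on genes kept by filterByExpr, with TMM scaling, robust quasi-likelihood fits of all 14 libraries in 4 groups and Benjamini-Hochberg adjustment at 0.05. Comparisons of CCl4 schedules used 5 groups and 16442 genes. SE was approximated as the absolute log2 fold change over the root of F. CPM per kilobase uses the longest principal transcript of GENCODE M21 (GRCm38), another build than the counts. Ratios to Krt8 had 0.5 added to both counts and were compared by exact permutation over libraries. Scripts were tested on simulated data. Alternatives were DESeq2 1.42.0, limma-voom (limma 3.58.1), other scaling factors, other low-count filters, separate fits for each pair of groups, a block by sample number, and leaving out each library. The block split sample numbers at 270. All olive oil libraries analysed lay below that number and all CCl4+EtOH libraries above it, so only the CCl4 and EtOH groups inform the block. Within CCl4 the block cannot be told apart from the schedule. Members, gene lists and tests were chosen with earlier results of these data known. All members were named, and from each list the genes past the threshold with the 4 smallest p in a comparison, and genes that passed the low-count filter were named where 4 or fewer did. The genes nearest to a member were the 3 with the highest Pearson correlation of log2 CPM (prior count 2) among genes with a mean of at least 1 CPM, leaving out members and predicted genes. Total counts per library limit precision for Krt20, Krt19 and Krt23, which had few counts in olive oil.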

Additional observations from a re-analysis of the deposited data

Results flagged for a closer look

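Krt23 in EtOH replicate 1 stood apart from the 3 other EtOH libraries, at 4.61 CPM against 1.42 to 1.88 CPM. The gap to its nearest neighbour was 0.857 of the group's range, over Dixon's critical value for 4 libraries. Of 20 groups of 4 libraries checked this way 1 passed, and chance passes about 1 in 20. The same library also had the highest Krt18, Krt19 and Krt20 among the 11 libraries outside CCl4+EtOH and the highest urothelium marker sum of all libraries (61.3 CPM). It likewise had the highest sums of 7 chromaffin cell markers (244 CPM) and 7 adipocyte markers (689 CPM), and carried the adrenal cortex transcripts given above. The part of these markers in the value was not tested.

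For 3 members the change with CCl4 differed between mice with and without ethanol, which in part also differed in time. The measure was the interaction term of the edgeR fit. It was 0.79 for Krt7 (edgeR adjusted p = 0.0249), 5.50 for Krt20 (adjusted p = 0.0427) and 1.12 for Nes (adjusted p = 0.0210), all on the log2 scale. These calls were all lost without CCl4+EtOH replicate 1 or 2, without olive oil replicate 1 or without EtOH replicates 1, 2 and 3. The Krt20 call was lost in 14 of 23 alternatives (edgeR adjusted p of up to 0.217), the Krt7 call in 5 and the Nes call in 4.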

How the results depend on the processing

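No result reversed its direction while called. Against olive oil, leaving out single libraries gave 5 to 7 members called for CCl4+EtOH (6 in the full set), and 0 for CCl4 and for EtOH. It gave 5 to 7 for CCl4+EtOH against EtOH (6 in the full set), 5 to 7 against CCl4 (7), 2 to 6 against the longer CCl4 schedule (6), and 0 to 7 for the interaction (3). The 7 for the interaction, without CCl4+EtOH replicate 3, were 6 higher and Krt80 lower. For the interaction DESeq2 and limma-voom each called 6 members, of which limma-voom had Krt80 lower. Without the 3 EtOH libraries with adrenal transcripts, chosen after seeing the data, CCl4+EtOH against EtOH fell from 6 members to 1 and the interaction from 3 to 0, with 1 EtOH library left. Over single members and comparisons, 1507 log2 fold changes under alternatives kept direction and side of the threshold, 57 lost the call, 19 gained it and 26 changed sign without a call in either fit. Of all genes, 5706 passed for CCl4+EtOH against olive oil, 3276 in a fit of these groups only, 3099 with a block by sample number and 3904 to 7417 without single libraries. The ranges without single libraries were 3195 to 7417 against EtOH (5514 in the full set), 3480 to 7396 against CCl4 (5610), and 803 to 6213 against the longer schedule (3753). For the interaction 1468 genes passed, 2519 in DESeq2, 4810 in limma-voom, 292 to 4881 without single libraries and 3 without the adrenal libraries, which left 335 against EtOH. For EtOH against olive oil 27 passed, 350 in DESeq2, 223 in limma-voom, 62 with 5 groups, 94 with only these groups, 65 with the block, 3 to 154 without single libraries and 1 without the adrenal libraries. The cause of these shifts was not tested. For CCl4 against olive oil DESeq2 called 1 gene, and for the CCl4 schedules 25, where edgeR called 0. No paired analysis was possible because the labels give no replicate numbers shared between groups. In olive oil the 2 to 12 counts of Krt20 limit the precision of its fold change.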
